A study of Mus musculus with 17 samples.

Results

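The transcription factor Myc, its Max network and its target Tfap4 were followed in mouse germinal centre (GC) B cells during an induced division burst. The network was Max, Mlx, Mxd1, Mxd3, Mxd4, Mxi1, Mnt and Mga, and all 10 genes are called network genes below. The 10 genes were taken by symbol, as a named family, from the 21848 genes in the files. All 10 were expressed highly enough to enter the tests, which covered 10220 genes in the time course and 10120 in the sort described below. Reads were single-cell libraries from the 5′ end of transcripts, counted as unique molecular identifiers (UMIs, 1 per captured molecule) and summed per mouse.

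GC B cells came from lymph nodes of wild-type CD45.1/1 hosts on the C57BL/6J background, of both sexes, primed with ovalbumin (OVA), given B1-8hi B cells (Igh B1-8hi/+, specific for the hapten NP) and immunized with NP-OVA. A minor fraction of the transferred cells carried the receptor DEC-205 and the remainder were Ly75-/-, lacking it, so the hosts' GCs held responding, non-responding and host cells. Anti-DEC-OVA, an antibody that delivers OVA to DEC-205, was injected 7 days after immunization; it makes the DEC-205+ GC B cells present OVA to T follicular helper cells, move to the dark zone (DZ) and divide repeatedly. The groups were 9 mice at 0 h (5299 cells), 6 untreated (3924 cells) and 9 treated mice (6053 cells) at 48 h, and 8 untreated (4947 cells) and 7 treated mice (3475 cells) at 72 h, drawn from 2 separate experiments. Per the study, the cells analysed at these times were DEC-205+ GC B cells. Cells in which the B1-8hi receptor pair was read made up 32.2 to 77.7% per mouse, and at 48 h their share did not overlap between treated and untreated mice in either experiment (70.5 to 77.7% against 62.3 to 67.4% in the larger, 53.1 to 58.0% against 34.7 to 38.8% in the smaller). In a further experiment 9 treated mice were listed and 7 were used, since the hashtags of the other two held almost no UMIs. They gave cells with the Rosa26 DHB-tdTomato reporter of CDK2 activity at 72 h. These were sorted by image into cells with cytoplasmic reporter (CDK2hi, 7448 cells) and with nuclear reporter (CDK2low, 4385 cells). Some of the reporter cells also carried H2B-GFP. Each sorted population was 1 library of pooled mice told apart by hashtags, so library and population cannot be told apart there.

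Myc binds DNA at E-box sequences only as a dimer with Max, and drives ribosome production, metabolism and entry into the cell cycle. Max also pairs with Mxd1, Mxd3, Mxd4, Mxi1, Mnt and Mga, which repress from the same sites; the Mxd proteins, Mxi1 and Mnt recruit the Sin3 corepressor, and Mga brings in a variant Polycomb complex. Mlx is a Max-like partner for Mnt, Mxd1, Mxd4 and the Mondo factors. Tfap4 (AP4) is a direct Myc target that keeps division going after Myc itself has gone. In GCs, Myc is present in a small set of light-zone (LZ) cells that have just received T cell help, and these cells then divide in the DZ.

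The results turned most on a pair of repressors, Mxd3 and Mxd4, and the 250 bases before the start of each gene are shown because both are Max partners and moved in opposite directions. The genes lie on chromosome 13 (55472981 to 55477908, minus strand) and chromosome 5 (34331227 to 34345240, minus strand) of GRCm39. The sequences are from RefSeq on GRCm38.p6, in transcript orientation, Mxd3 at chr13:55329732-55329981 and Mxd4 at chr5:34187711-34187960, both on the minus strand. The capitals in the Mxd4 sequence mark the E-box CACGTG, which reads the same on both strands.
Mxd3: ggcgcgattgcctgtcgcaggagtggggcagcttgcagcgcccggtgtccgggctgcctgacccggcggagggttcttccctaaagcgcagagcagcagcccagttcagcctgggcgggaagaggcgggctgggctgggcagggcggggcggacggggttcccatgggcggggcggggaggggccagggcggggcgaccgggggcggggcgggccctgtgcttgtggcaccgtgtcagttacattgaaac
Mxd4: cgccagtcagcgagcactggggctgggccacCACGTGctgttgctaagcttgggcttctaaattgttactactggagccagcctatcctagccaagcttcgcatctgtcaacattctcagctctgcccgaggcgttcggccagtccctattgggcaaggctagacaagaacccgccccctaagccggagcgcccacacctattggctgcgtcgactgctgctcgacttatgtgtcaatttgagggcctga
Windows were found for 8 of the 10 genes, 10 in all since Mxi1 had 3, and none was in the table for Myc or Tfap4. The E-box occurred in 3 of the 10 windows, those of Mxd4 (219 bases before the start), Mnt (123) and Mlx (40), against 6.02% of 32851 windows of all genes. The cell cycle element CHR (TTTGAA or TTCGAA, either strand) was in 0 of the 10 windows and in 17.1% of all windows, and an E2F element (TTTGGCGC or TTTCCCGC) in 0 and in 1.3%. The FOXO element TGTTTAC was in 1 Mxi1 window and in 3.17% of all. These matches describe letters in a window and are not binding sites.

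The cells carried the markers of GC B cells. The summed level of 8 GC B cell genes was 2496 to 4434 CPM in every mouse. CPM is a gene's UMI count scaled to the UMI total of the mouse with TMM factors. Within phases or zones it is scaled to the UMI total of those cells, without TMM. As a share, CPM can fall while the UMIs per cell rise. The 5 measured T cell genes reached at most 22.2 in the time course and 47.6 in the sort, and 8 myeloid genes at most 31.2 and 21.0. At 48 h, treated cells were larger libraries (median UMIs per cell 10004 to 14467 across mice, against 5030 to 7455 untreated), and fewer were called G1 (17.4 to 24.2% against 46.6 to 56.9%). More had a DZ score above their LZ score (71.2 to 85.0% against 55.3 to 66.9%), and 8 naive and memory B cell genes summed to 116 to 228 against 255 to 461. The T cell genes were at 0.398 to 4.80 CPM in treated and 5.98 to 9.09 in untreated mice at 48 h, with no overlap. A list of 7 plasma cell genes, mostly Jchain and Xbp1, summed to 1228 to 2070 against 755 to 1550. The 2 experiments shared 43 kept cell barcodes and the sorted populations 5.

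At 48 h, 4 of the 10 genes passed the test between treated and untreated mice: Mxd3 rose in CPM, and Mxd4, Max and Mga fell in CPM. This was 40% of the genes, against 47.4% of all genes tested (edgeR quasi-likelihood test, adjusted p below 0.05). At 72 h, 0 of 10 passed, against 8.55% of all genes; 4 had an unadjusted p below 0.05 and DESeq2 also called 0. From 48 h to 72 h in treated mice, 6 passed, 3 higher and 3 lower, against 49.1%. Between untreated mice and 0 h, 0 of 10 passed at 48 h (0.127% of all genes) and 0 at 72 h (4.41%), with 1 and 3 genes at an unadjusted p below 0.05 and 0 called by DESeq2 in both. Between treated 48 h and 0 h, 4 passed (51.8%). The treatment effect itself differed between 48 h and 72 h for 5 genes (31.5%), and between CDK2hi and CDK2low cells 7 passed (75.1%). The share of network genes called was above that of all genes for the interval from 48 h to 72 h and for the change of the effect, and below it elsewhere. The median log2 change of the 10 was -0.02 at 48 h, -0.09 at 72 h and -0.14 in the sort, beside 0.01, -0.00 and -0.02 over all genes. The comparisons at 48 h share mice with each other, as do those at 72 h. All p-values measure the spread between mice, and in sums over cells a change in the mix of cells and a change of RNA per cell cannot be told apart.

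**Figure D1:**
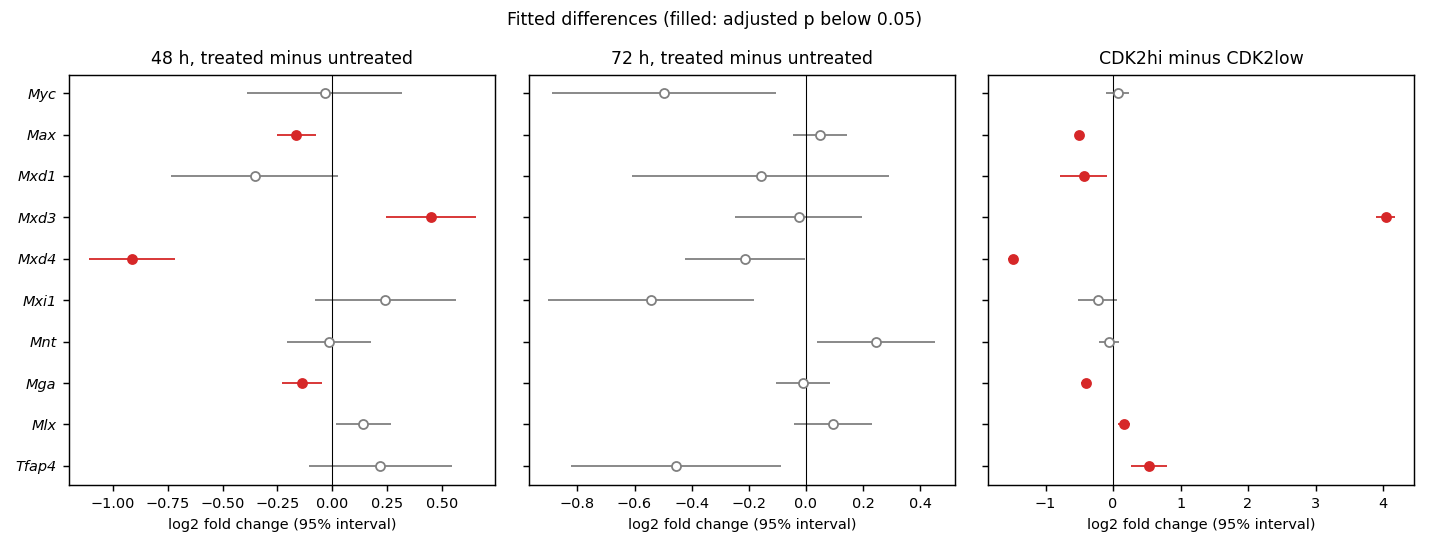
Log2 change of each of the 10 genes (rows) as fitted by edgeR at 48 h and at 72 h (treated minus untreated mice) and in the sort (CDK2hi minus CDK2low), each panel on its own horizontal scale; bars are 95% intervals and filled red points passed adjusted p below 0.05. Mxd4 fell by 0.91 at 48 h while Mxd3 rose by 0.45, no point is filled at 72 h, and in the sort Mxd3 was higher by 4.04.

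Myc, the activator of the network, lies on chromosome 15 (61857227 to 61862223, plus strand) of GRCm39, and its level over all cells of both experiments did not pass in any of the 8 comparisons. In alternatives it passed 5 times: in the sort with thinned cells, in G1 cells and in DZ cells (0.31, edgeR adjusted p = 0.0123), in DZ cells from 48 h to 72 h in treated mice, and between 0 h and treated 48 h in the smaller experiment alone (0.71, edgeR adjusted p = 0.0238). CPM values do not rank one gene against another, since they are not scaled by length. Untreated mice at 48 h had 26.4, 33.2 and 55.3 CPM of Myc (lowest, median, highest), and treated mice had 28.3, 35.2 and 46.2. The groups overlapped almost fully, with a log2 change of -0.03 (SE 0.18, edgeR adjusted p = 0.901) and a 95% interval of -0.39 to 0.32. The highest untreated value, 55.3, came from mouse M10 of the larger experiment, and the nearest untreated mouse had 34.8.

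At 72 h the Myc level was 29.0, 39.2 and 58.4 in untreated mice and 23.0, 26.9 and 43.2 in treated mice. The treated values lay lower but overlapped the untreated ones, and the log2 change of -0.50 (SE 0.20) missed the threshold (edgeR adjusted p = 0.121). Its interval, -0.89 to -0.11, left out 0 before correction for all genes. At 0 h the values spread most widely, from 15.3 to 57.6 with a median of 29.2, and untreated 72 h exceeded 0 h by 0.36 (SE 0.18, edgeR adjusted p = 0.269). In order of the mean, Myc stood at 24.3 ± 8.46 in CDK2low cells (SD, n = 7), 25.04 ± 4.52 in CDK2hi cells (n = 7), 29.99 ± 6.999 at 72 h treated (n = 7), 30.8 ± 15.3 at 0 h (n = 9), 34.9 ± 5.44 at 48 h treated (n = 9), 35.8 ± 10.03 at 48 h untreated (n = 6) and 41.6 ± 11.99 at 72 h untreated (n = 8). Neighbours in this order had overlapping ranges, and their means differed by less than the larger of the SDs of the pair. The sort was a separate experiment.

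**Figure D2:**
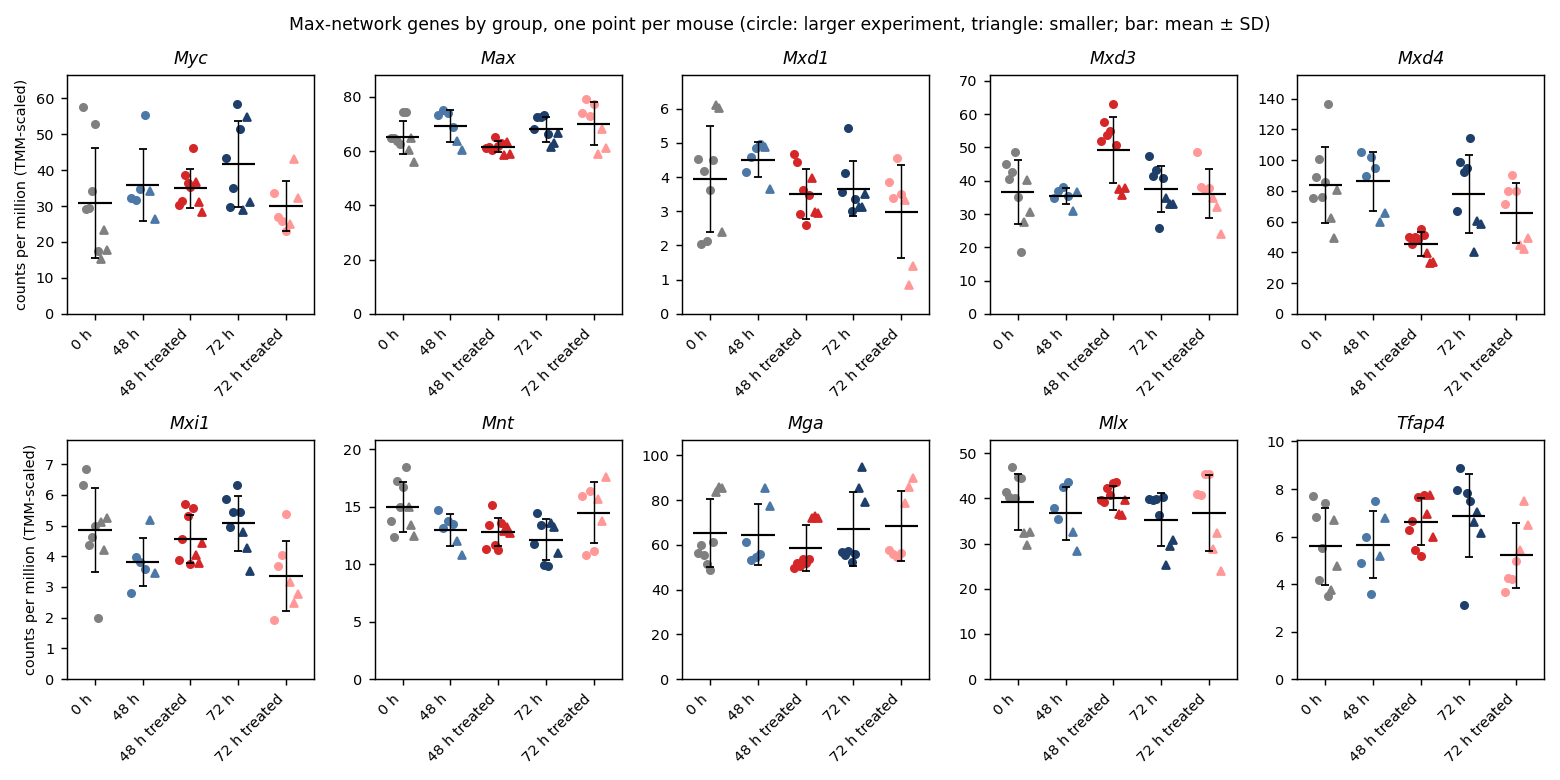
CPM (TMM-scaled) of each of the 10 genes, 1 panel a gene on its own scale from 0, in every mouse of the 5 time-course groups; points are mice (circles, larger experiment; triangles, smaller) and black bars are the mean ± SD. Mxd4 separates treated from untreated mice at 48 h, at 32.9 to 55.4 against 59.7 to 105, and the Myc groups overlap.

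Myc was carried by a minority of cells. In untreated mice at 48 h, 8.37 to 16.6% of cells held a Myc UMI, and in treated mice 14.9 to 24.96%, but treated cells also had the larger UMI totals. After every cell was thinned to 2871 UMIs, the share was 5.84 ± 0.709% untreated (SD, n = 6) and 6.43 ± 0.890% treated (SD, n = 9), a difference of 0.583 points (exact permutation test within experiments, two-sided p = 0.152, adjusted over 3 comparisons 0.152). Thinning kept 77.0 to 94.3% of cells per untreated mouse and 92.2 to 98.3% per treated mouse. The thinned share was lower by 1.31 points at 72 h treated than at 72 h untreated (exact permutation p = 0.135, adjusted 0.152), and lower by 1.31 points at 72 h than at 48 h in treated mice (exact permutation p = 0.0214, adjusted 0.0643). None of the 3 passed after adjustment. No cell type lacking Myc was present to set a background, and DZ cells in G2/M held the lowest thinned shares, 3.22% untreated and 3.08% treated at 48 h. Cells with 3 or more Myc UMIs after thinning were under 1% of cells in each group and held 13.4 to 38.1% of the Myc UMIs, so the level in a mouse rested in part on few cells.

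**Figure D3:**
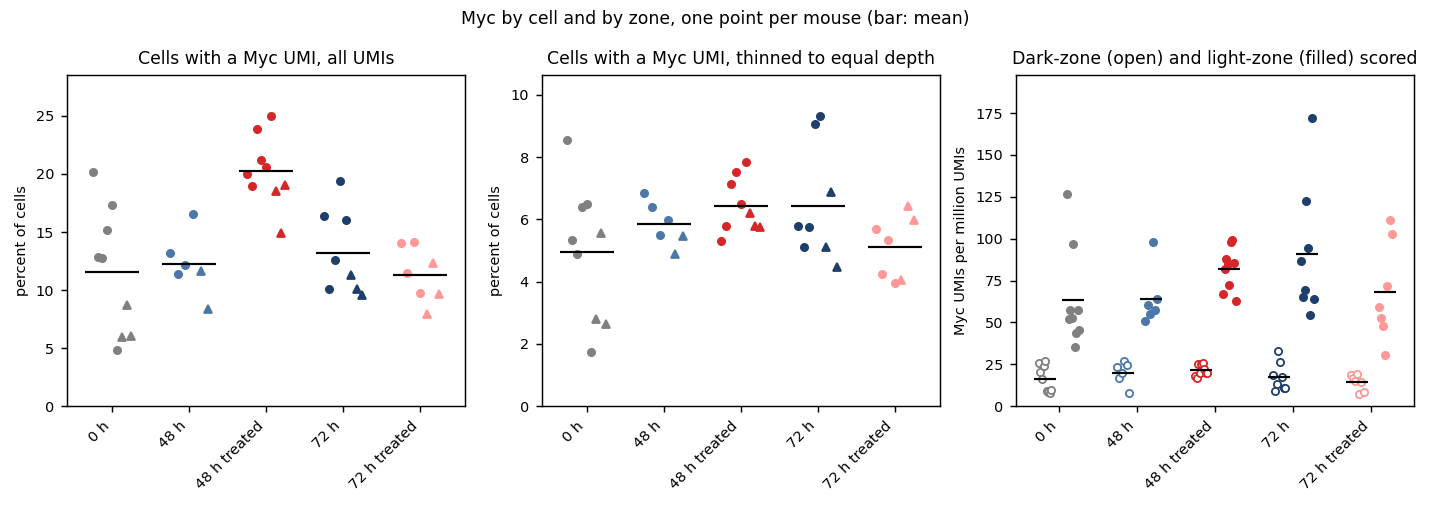
Percent of cells with a Myc UMI in every time-course mouse as counted (left) and after thinning each cell to 2871 UMIs (middle), and the Myc level in CPM of DZ-scored (open) and LZ-scored cells (filled, right); points are mice and bars are means. The gap between treated and untreated mice at 48 h, 20.2 against 12.2% on average, narrows to 6.43 against 5.84% after thinning, and LZ points lie above DZ points in every group.

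The Myc level differed by zone in every mouse. LZ-scored cells exceeded DZ-scored cells in 39 of 39 time-course mice and in 14 of 14 sorted samples. At 48 h the LZ level was 64.2 ± 17.1 CPM in untreated mice (SD, n = 6) against 19.9 ± 6.91 in DZ cells, and 82.1 ± 12.7 in treated mice (SD, n = 9) against 21.4 ± 3.36. Treated minus untreated mice was 0.37 on the log2 scale in LZ cells (edgeR adjusted p = 0.218) and 0.19 in DZ cells (edgeR adjusted p = 0.463), and neither passed. In treated mice the DZ level was lower at 72 h than at 48 h by 0.67 on the log2 scale (edgeR adjusted p = 0.0071), at 14.3 ± 4.77 (SD, n = 7). The zone score is a range cut at equality, and 5.65% of time-course cells lay within 0.05 of the cut. Across the phases, Myc was higher in S than in G1 cells in 33 of 39 mice, at 52.9 ± 17.98 against 23.4 ± 7.21 in untreated mice at 48 h (SD, n = 6). In the sort this order held in 7 of 7 mice in CDK2low cells and in 2 of 7 in CDK2hi cells.

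Max, the obligate partner, is on chromosome 12 (76984043 to 77009009, minus strand). Its level at 48 h was 60.5, 71.0 and 75.2 CPM in untreated mice and 58.7, 61.6 and 65.3 in treated mice. It fell by 0.16 on the log2 scale (SE 0.05, edgeR adjusted p = 0.0027), to 0.893 of the untreated level, with overlapping groups. This is a fall in the share of UMIs, and Max UMIs per cell went the other way. They were 0.865 to 1.005 in treated and 0.608 to 0.675 in untreated mice of the larger experiment. In the smaller they were 0.773 to 0.833 and 0.463 to 0.507. In treated mice the CPM of Max rose again by 0.20 from 48 h to 72 h (SE 0.04, edgeR adjusted p = 3.2e-04), and at 72 h it lay within 0.05 of the untreated level on the log2 scale (95% interval -0.04 to 0.14). Max was higher in G1 than in S cells in 38 of 39 mice. The fall at 48 h was called in the larger experiment alone (-0.26) but not in the smaller one (-0.07, edgeR adjusted p = 0.587).

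Mlx, the Max-like partner, did not pass in the time course, except that from 48 h to 72 h in treated mice of the smaller experiment alone it was lower by 0.37 (edgeR adjusted p = 0.0162). At 48 h it had 28.4, 36.6 and 43.7 CPM untreated and 36.4, 39.6 and 43.6 treated, a log2 change of 0.14 (SE 0.06, edgeR adjusted p = 0.0651). Of the other network genes not among the 10, Mycn had 2 UMIs in all time-course cells, Mycl 104 and Mlxipl 32, too few to test. Mlxip, which pairs with Mlx, had 10547 and fell by 0.18 at 48 h (SE 0.07, edgeR adjusted p = 0.0333).

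Among the repressors, Mxd4 had the largest log2 change at 48 h. It stood at 59.7, 92.1 and 105 CPM in untreated mice at 48 h and at 32.9, 48.4 and 55.4 in treated mice. Every treated mouse lay below every untreated mouse, and the gap held in each experiment, at 45.3 to 55.4 against 89.5 to 105 in the larger and 32.9 to 39.8 against 59.7 to 65.7 in the smaller. How many of all genes separated the mice in this way was not counted, and 47.4% of all genes were called at 48 h. Mxd4 fell by 0.91 on the log2 scale (SE 0.10, edgeR adjusted p = 3.1e-09), to 0.531 of the untreated level, and in cells with the B1-8hi receptor pair alone by 0.90 (edgeR adjusted p = 1.3e-07). Both values are changes in the share of all UMIs that were Mxd4. Treated cells held more UMIs (medians 10004 to 14467 across mice, against 5030 to 7455 untreated). The fall is therefore not one of the same size in Mxd4 UMIs per cell. The share of cells with a Mxd4 UMI after thinning was 24.02 ± 3.996% untreated (SD, n = 6) and 13.8 ± 2.39% treated (SD, n = 9).

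Over all cells the fall was smaller at 72 h and did not pass. Mxd4 had 40.0, 79.5 and 115 CPM in untreated and 41.9, 71.2 and 90.3 in treated mice, ranges that overlapped throughout, with a log2 change of -0.21 (SE 0.11, edgeR adjusted p = 0.236). Treated mice gained 0.57 between 48 h and 72 h (SE 0.10, edgeR adjusted p = 1.3e-05). The treatment effect differed between the times by 0.70 (SE 0.15, edgeR adjusted p = 3.5e-04). Untreated mice showed no such course, with log2 changes from 0 h of 0.08 at 48 h and -0.05 at 72 h.

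Mxd3 moved the other way. Its level at 48 h was 31.0, 36.0 and 38.2 CPM untreated and 35.8, 51.8 and 63.1 treated, and it rose by 0.45 (SE 0.10, edgeR adjusted p = 4.7e-04), or 1.37-fold. The groups overlapped because of the smaller experiment. In the larger, treated mice had 50.6 to 63.1 against 34.8 to 38.2 with no overlap; in the smaller, treated mice had 35.8 to 37.8 against 31.0 and 36.6, and the change of 0.11 did not pass there (edgeR adjusted p = 0.624). From 48 h to 72 h in treated mice Mxd3 fell by 0.37 (SE 0.10, edgeR adjusted p = 0.0026), and at 72 h treated and untreated mice differed by -0.03 (95% interval -0.25 to 0.20).

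Both repressors were tied to the phase of the cycle. Phases were called from S and G2/M genes, and zones from LZ and DZ genes, that include none of the 10. In untreated mice at 48 h Mxd3 stood at 2.05 ± 0.709 CPM in G1 cells, 26.4 ± 6.61 in S cells and 71.5 ± 5.78 in G2/M cells (SD, n = 6), and G2/M and S exceeded G1 in 39 of 39 mice. Mxd4 ran in the reverse order, at 171 ± 17.1 in G1, 49.8 ± 9.75 in S and 42.9 ± 7.29 in G2/M (SD, n = 6), with G1 above S in 39 of 39 mice.

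Within single phases the Mxd3 difference at 48 h was not found. Treated mice had 69.0 ± 11.8 in G2/M cells and 28.5 ± 6.88 in S cells (SD, n = 9), log2 changes of -0.03 (edgeR adjusted p = 0.853) and 0.13 (edgeR adjusted p = 0.592), and too few UMIs were present in G1 to test. The Mxd4 difference was smaller but passed in cycling cells: -0.49 in S (edgeR adjusted p = 0.0032) and -0.45 in G2/M (edgeR adjusted p = 0.0043), where treated mice had 34.5 ± 6.81 and 30.7 ± 6.75. In G1 cells it was -0.21 (SE 0.10, edgeR adjusted p = 0.199). The phase shares moved with both genes at 48 h, with 38.9 to 47.3% of treated cells in G2/M against 22.7 to 33.5%. At 72 h, by contrast, Mxd4 was lower in treated G1 cells by 0.38 (edgeR adjusted p = 0.0121), at 117 ± 29.7 against 156 ± 35.6, and in G1 cells of treated mice the value from 48 h to 72 h was -0.30 (edgeR adjusted p = 0.0805), opposite in sign to that over all cells.

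**Figure D4:**
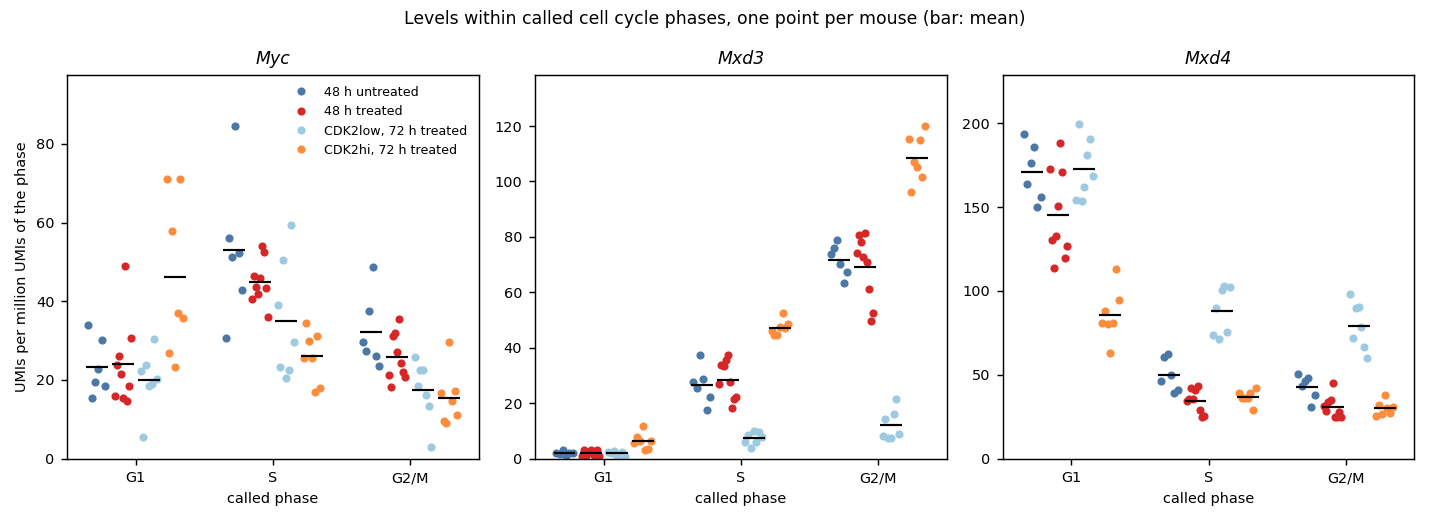
CPM of Myc, Mxd3 and Mxd4 in cells called G1, S and G2/M, with phases scored in each library separately. Groups are untreated and treated mice at 48 h and the sorted CDK2low and CDK2hi cells, points are mice and bars are means. Mxd3 is near 0 in G1 and highest in G2/M, Mxd4 is highest in G1, and the orange CDK2hi points stand apart from the pale CDK2low points for both.

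Mxd1 and Mxi1 had few UMIs and did not pass at 48 h or 72 h over all cells of all groups. Mxd1 passed at 48 h where only the groups compared were fitted (-0.37, edgeR adjusted p = 0.0475). Mxi1 passed at 72 h in cells with the B1-8hi receptor pair alone (-0.82, edgeR adjusted p = 0.0213) and without the 0 h mouse of the highest G1 share (-0.54, edgeR adjusted p = 0.0407). Mxd1 stood at 3.64, 4.71 and 4.95 CPM untreated at 48 h and 2.59, 3.49 and 4.68 treated (log2 change -0.35, SE 0.20, edgeR adjusted p = 0.134). Mxi1 had 2.82, 3.69 and 5.20 untreated and 3.75, 4.43 and 5.69 treated at 48 h. At 72 h the order was the other way round, with 3.52, 5.19 and 6.32 untreated and 1.93, 3.17 and 5.38 treated (log2 change -0.54, SE 0.18, edgeR adjusted p = 0.057). Neither contrast of Mxi1 passed, but the change between them did, at -0.78 (SE 0.25, edgeR adjusted p = 0.0127), and in treated mice Mxi1 fell by 0.41 from 48 h to 72 h (SE 0.17, edgeR adjusted p = 0.0442). The latter call was lost in 13 of 16 alternatives and its sign turned in 1, and the change of the effect lost its call in 6 of 16.

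Mnt, the broadly expressed antagonist, had 10.8, 13.3 and 14.7 CPM untreated and 11.3, 12.9 and 15.1 treated at 48 h, with a log2 change of -0.01 (95% interval -0.20 to 0.18). It fell by 0.21 between 0 h and treated 48 h (SE 0.09, edgeR adjusted p = 0.0374), beside a value of -0.20 in untreated mice that did not pass (edgeR adjusted p = 0.56), and both used the same 0 h mice. The call was lost in 10 of 17 alternatives. Mga had 53.1, 58.5 and 85.6 untreated and 49.6, 53.5 and 73.0 treated, and fell by 0.14 (SE 0.05, edgeR adjusted p = 0.0130). This fall is in the share of UMIs, in treated cells with larger UMI totals, and does not give the change in Mga UMIs per cell. The Mga level stood apart by experiment, at 49.6 to 53.6 in treated mice of the larger and 71.8 to 73.0 in those of the smaller, and within each experiment treated mice lay mostly below untreated ones (53.1 to 61.3 and 77.4 to 85.6). In treated mice Mga rose by 0.15 from 48 h to 72 h (SE 0.05, edgeR adjusted p = 0.0049). The call at 48 h was lost in 6 of 17 alternatives, and the later rise in 6, with the sign turned in 1.

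Tfap4, the Myc target that prolongs division, stood at 3.59, 5.58 and 7.52 CPM untreated and 5.18, 6.65 and 7.77 treated at 48 h (log2 change 0.22, SE 0.17, edgeR adjusted p = 0.28). At 72 h it had 3.14, 7.26 and 8.87 untreated and 3.68, 4.97 and 7.48 treated (log2 change -0.45, SE 0.19, edgeR adjusted p = 0.131). Neither passed. In treated mice it fell by 0.42 from 48 h to 72 h (SE 0.17, edgeR adjusted p = 0.0393), and its treatment effect dropped by 0.68 between the times (SE 0.25, edgeR adjusted p = 0.0347). Of 16 alternatives, 13 lost the former call and 9 the latter. Tfap4 was an S phase transcript in these cells, at 11.9 ± 3.75 in S against 1.63 ± 0.733 in G1 in untreated mice at 48 h (SD, n = 6), with S above G1 in 39 of 39 mice. Its LZ level exceeded its DZ level in 35 of 39 mice.

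Mxd3 and Mxd4 also differed between cells sorted by CDK2 activity. All 7 mice gave both populations, and the test paired them by mouse. Mxd3 had 3.53, 4.76 and 6.35 CPM in CDK2low cells and 70.7, 76.7 and 82.1 in CDK2hi cells, a 16.4-fold difference (log2 4.04, SE 0.07, edgeR adjusted p = 6.2e-25). Mxd4 had 104, 123 and 133 in CDK2low and 39.0, 41.7 and 46.9 in CDK2hi cells, 0.357 of the level (log2 -1.48, SE 0.04, edgeR adjusted p = 1.3e-21). Neither gene's ranges overlapped. How many of all genes were apart in this way was not counted, and 75.1% of all genes were called in the sort. After thinning to 5260 UMIs, 28.2 ± 1.33% of CDK2hi cells and 2.27 ± 0.623% of CDK2low cells held a Mxd3 UMI, and 17.97 ± 1.17% and 45.1 ± 2.99% a Mxd4 UMI (SD, n = 7).

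The phase shares differed with the sort, at 12.2 to 19.1% G1 in CDK2hi and 52.5 to 63.3% in CDK2low cells, and so did the naive and memory B cell genes, which summed to 129 to 216 and 347 to 558 CPM. The myeloid genes also did not overlap, at 4.64 to 7.02 in CDK2hi and 7.43 to 21.0 in CDK2low cells; the part of other cells in the differences was not tested. In the sort the differences were also present within called phases. Phases and zones were scored in each library separately, so the same call may not mean the same state in both populations. Mxd3 was higher in CDK2hi cells by 2.95 in S (edgeR adjusted p = 1.5e-23), at 47.3 ± 2.75 against 7.37 ± 2.23, and by 3.38 in G2/M (edgeR adjusted p = 1.3e-19), at 109 ± 8.50 against 12.002 ± 5.37. Mxd4 was lower by 0.90 in G1, 1.04 in S and 1.32 in G2/M. The G1 level of Mxd4 was 85.9 ± 15.4 in CDK2hi and 173 ± 18.1 in CDK2low cells (SD, n = 7).

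**Figure D5:**
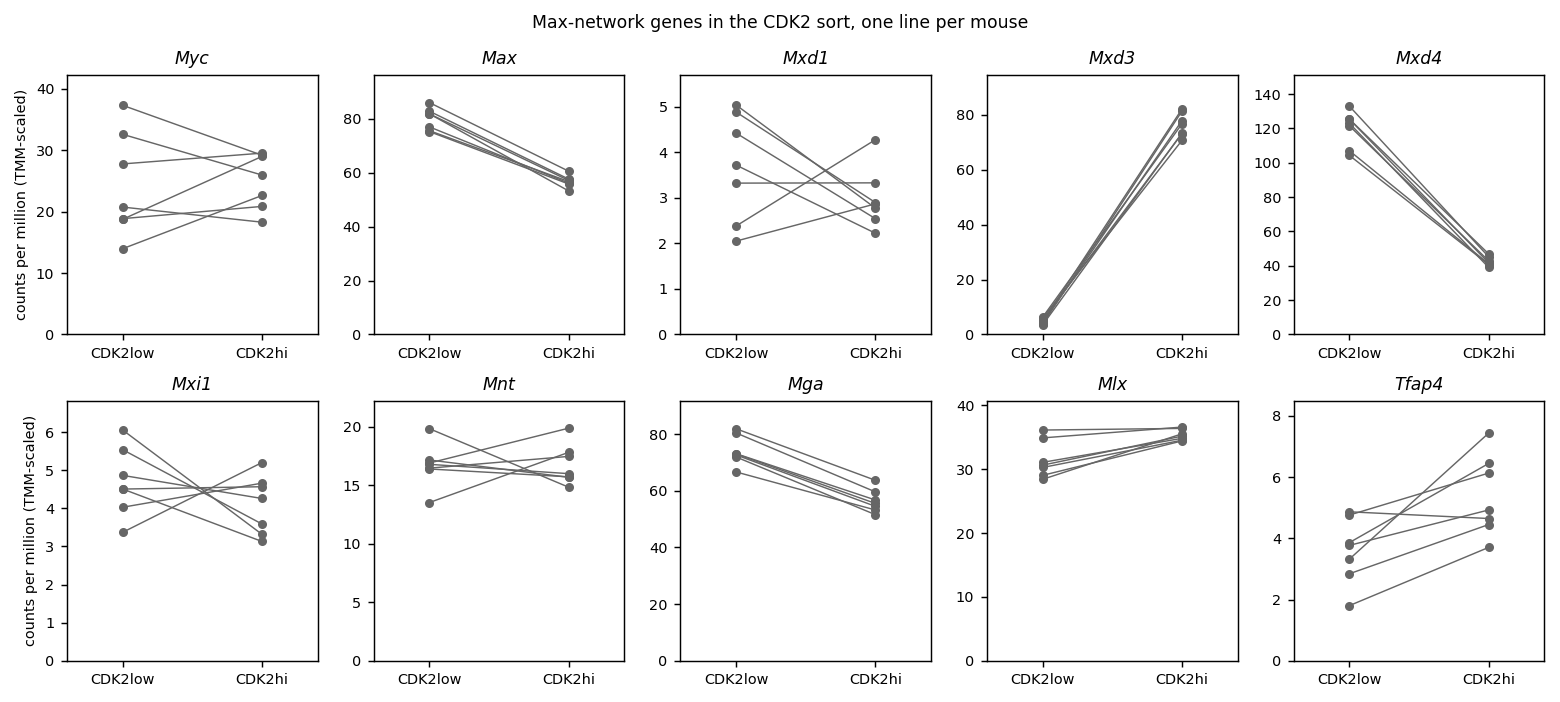
CPM (TMM-scaled) of each of the 10 genes in CDK2low and CDK2hi cells, each panel on its own scale from 0; lines join the 2 populations of each of the 7 mice. Mxd3 climbs from 3.53 to 6.35 up to 70.7 to 82.1, Mxd4, Max and Mga drop in every mouse, and the Myc lines run both ways.

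Max and Mga were lower in CDK2hi cells with no overlap, a separation not counted over all genes, of which 75.1% were called. Max had 53.2, 56.7 and 60.5 CPM against 75.2, 81.8 and 85.9 (log2 -0.50, SE 0.04, edgeR adjusted p = 1.9e-12), and Mga 51.6, 55.6 and 63.7 against 66.7, 73.0 and 81.9 (log2 -0.41, SE 0.03, edgeR adjusted p = 9.5e-11). Max was lower in CDK2hi cells within each phase as called per library too, by 0.42 in G1, 0.50 in S and 0.49 in G2/M. Mlx was higher by 0.16 (SE 0.05, edgeR adjusted p = 0.0038) and Tfap4 by 0.53 (SE 0.14, edgeR adjusted p = 0.0012). The Mlx call was lost in 3 of 20 alternatives, with thinned cells (0.09, edgeR adjusted p = 0.258), in G1 cells (0.11, edgeR adjusted p = 0.332) and in G2/M cells (0.09, edgeR adjusted p = 0.513), and its sign turned in S cells and in LZ cells (-0.02 and -0.06). The Tfap4 call was lost in S cells (0.34, edgeR adjusted p = 0.0545) and its sign turned in LZ cells (-0.01), of 18 alternatives. Mxd1 was lower by 0.43 (SE 0.18, edgeR adjusted p = 0.029) on few UMIs, at 2.22 to 4.27 against 2.05 to 5.04, and this call was lost in 9 of 17 alternatives, among them DESeq2 (adjusted p = 0.222), without the pairing by mouse (adjusted p = 0.0501) and when mouse M1, M3, M5 or M7 was left out (edgeR adjusted p = 0.152, 0.0921, 0.132 and 0.0591). Mxi1 (log2 -0.22, edgeR adjusted p = 0.172) and Mnt (-0.06, edgeR adjusted p = 0.478) did not pass.

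Myc did not differ between the sorted populations as a whole. It had 13.96, 20.7 and 37.3 CPM in CDK2low and 18.3, 25.9 and 29.5 in CDK2hi cells (log2 0.07, SE 0.09, 95% interval -0.10 to 0.24, edgeR adjusted p = 0.492). The 2 populations did differ in G1-called cells, where CDK2hi cells had 46.1 ± 20.3 against 19.9 ± 7.52 (SD, n = 7), a log2 difference of 1.37 (edgeR adjusted p = 1.9e-14). In S and G2/M cells the values were -0.23 (edgeR adjusted p = 0.0664) and -0.18 (edgeR adjusted p = 0.435). The high G1 level lay in LZ-scored cells, at 112 ± 73.3 against 16.5 ± 5.71 in DZ-scored G1 cells of the CDK2hi population (SD, n = 7), with as few as 17 such LZ cells in a mouse. Phase and zone were scored in each library separately, so cells with the same call may differ in kind between the populations. G1-called cells were 12.2 to 19.1% of CDK2hi and 52.5 to 63.3% of CDK2low cells. The thinned share of G1 cells with a Myc UMI was 3.92 points higher in CDK2hi cells (exact sign-flip permutation test, p = 0.0469, higher in 6 of 7 mice), and over all phases 1.05 points higher (exact p = 0.1875, 4 of 7 mice; the smallest p is 0.0156). With every cell thinned, the level over all phases passed at 0.40 (edgeR adjusted p = 5.5e-04), and CDK2low cells had the larger libraries (median 10563 to 14838 UMIs against 8939 to 11754).

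A list of 34 known Myc targets, chosen with earlier results of these data known, was also read. Of the 34, 26 rose and 1 fell at 48 h, with a median log2 change of 0.30 beside 0.01 over all genes, of which 47.4% were called. Among them were the nucleolar proteins Ncl (0.27, SE 0.09) and Npm1 (0.45, SE 0.10), ornithine decarboxylase Odc1 (0.25, SE 0.06), the pyrimidine enzyme Cad (0.36, SE 0.11) and the cyclin-dependent kinase Cdk4 (0.46, SE 0.07). The target that fell was the D-type cyclin Ccnd2 (-1.33, SE 0.33, edgeR adjusted p = 0.0010). At 72 h, 0 rose and 1 fell (8.55% of all genes called), and in treated mice from 48 h to 72 h 1 rose and 29 fell, with a median of -0.45 beside -0.01 over all genes, of which 49.1% were called. Npm1 fell by 0.73 and Cdk4 by 0.53 over that interval. In the sort, 26 of 33 tested targets were higher and 3 lower in CDK2hi cells (median 0.41, beside -0.02 and 75.1% called over all genes), with Npm1 at 0.75, Cdk4 at 0.74 and Ncl at 0.63, and Ccnd2 lower by 1.41. The treated and sorted groups with higher targets were also those with more cells in S and G2/M.

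The corepressor genes that serve Mxd proteins and Mnt also rose at 48 h. Of 9 tested, 8 rose at 48 h and 0 fell, 0 passed at 72 h, 8 fell from 48 h to 72 h in treated mice, and 9 were higher in CDK2hi cells. Over all genes 47.4% were called at 48 h, 8.55% at 72 h, 49.1% from 48 h to 72 h and 75.1% in the sort. The list's median was 0.31 at 48 h and 0.51 in the sort. The groups with higher corepressor genes were also those with more cells in S and G2/M, and the part of this was not tested. The scaffold Sin3a rose by 0.22 at 48 h (SE 0.05, edgeR adjusted p = 9.0e-04) and was higher by 0.49 in the sort, whereas its paralog Sin3b had -0.03 at 48 h (edgeR adjusted p = 0.586) and 0.08 in the sort (edgeR adjusted p = 0.0236). Of 10 genes of the Polycomb complex that holds Mga, 6 rose and 2 fell at 48 h (47.4% of all genes called), with a median of 0.20, while Mga itself fell. The subunits L3mbtl2 and Pcgf6 rose by 0.21 and 0.22, and E2f6 had 0.02 (edgeR adjusted p = 0.875). Rnf2 and Rybp, named after their values were seen, were the 2 that fell (by 0.21 and 0.28). In the sort 7 of the 10 were higher in CDK2hi cells and 0 lower, near the 75.1% called over all genes, with L3mbtl2 at 0.71.

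Of 17 genes for Myc cofactors and Myc turnover, 5 rose and 3 fell at 48 h (47.4% of all genes called) and 8 were higher and 4 lower in CDK2hi cells (75.1%), shares close to those of all genes. The medians were 0.01 and 0.01. The coactivator Trrap had -0.05 at 48 h and -0.00 in the sort, and the Myc partner Zbtb17 (Miz1) -0.03 and -0.24. The 3 that fell at 48 h, named after their values were seen, encode proteins that take part in Myc turnover, Fbxw7 (by 0.44, SE 0.07), Gsk3b (by 0.18, SE 0.04) and Huwe1 (by 0.10, SE 0.04). The same 3 were lower in CDK2hi cells, at -0.51, -0.14 and -0.27.

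Across the 39 time-course mice, after subtracting each experiment's mean, the genes whose log2 level ran most like Myc among 6812 compared were Noc2l (Pearson r = 0.778), Gstt2 (0.777), Ddt (0.745), Gemin5 (0.733) and Gnl3 (0.72). For Mxd3 it was Spc25 (0.903), for Mxd4 Slc28a2 (0.915), for Mga Map3k5 (0.85), for Mlx Atp6v0e (0.788), for Max Fam102a (0.727) and for Tfap4 Znhit6 (0.693). Mxd1, Mxi1 and Mnt had no gene above 0.63, with Serp1 (0.576), Ipp (0.623) and Arl4a (0.619). Within the network, Mxd3 and Mxd4 ran against each other (r = -0.706) and Myc ran with Tfap4 (r = 0.62). These correlations describe 39 mice that share the group differences and the phase shares above.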

How the data were processed

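UMI counts per gene and cell were deposited by the authors as 10x matrices, not normalized; per the submitters' processing notes they came from Cell Ranger 6.0.1 on mm39 and were used with Seurat 5.1.0, while headers in the files name a later Cell Ranger version. Kit version per library is not given in the sources used here. Depth per mouse was 1984400 to 20395000 UMIs over 278 to 1679 cells, and precision was limited by the 6 to 9 mice per group.

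Cells were assigned to mice by hashtags (HTODemux in Seurat 5.3.0, quantile 0.99, after removing hashtags under 0.1% of hashtag UMIs), which also removed cells with several hashtags as doublets. Cells with under 200 genes or over 10% mitochondrial UMIs were left out. The mitochondrial limit removed 3036 of 13187 assigned cells in the smaller experiment and 332 of 13976 in the larger. UMIs were summed per mouse and tested with edgeR 4.0.16 in R 4.3.3 (filterByExpr, TMM, glmQLFit, glmQLFTest; Benjamini-Hochberg over all genes tested, threshold 0.05), with experiment as covariate in the time course and mouse as block in the sort, where the labels of the hashtags give the same 7 mice in both libraries. Intervals of 95% were taken from the SE of each log2 change. Phase and zone were scored in Seurat, in each library separately. Shares of cells were compared after thinning and by exact permutation. The edgeR fit was tested on simulated counts with known changes, for treated against untreated mice at 48 h and for the sort. Those counts had the same spread for every gene and no difference between experiments or mice beyond depth, so they do not test how the fit handles these. The other steps were not tested in this way. Alternatives were DESeq2 1.42.0, other size factors, no filters, thinning, other hashtag calls, subsets of cells, single experiments and leaving out mice.

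The 10 genes and all gene lists were chosen with earlier results of these data known. Genes named from the lists were fixed by name, save where the text says that they were chosen after their values were seen. The antigen-receptor libraries were used to mark B1-8hi cells in an alternative, and the libraries of a further experiment were not used here.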

Additional observations from a re-analysis of the deposited data

Results flagged for a closer look

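Within 70 sets of mice (each gene in each group), 3 had 1 mouse far from the rest, where chance alone marks about 1 in 20. For Myc at 48 h untreated, mouse M10 of the larger experiment had 55.34 CPM and the nearest mouse 34.82. At 72 h untreated, mouse M20 stood apart for Mxd1 at 5.439 (nearest 4.125) and for Tfap4 at 3.138 (nearest 6.155).

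The effect of anti-DEC-OVA differed between 48 h and 72 h for 5 genes by the test of the difference itself (edgeR adjusted p below 0.05). On the log2 scale the change of the effect was 0.70 for Mxd4, 0.21 for Max, -0.48 for Mxd3, -0.68 for Tfap4 and -0.78 for Mxi1. These calls were lost in 9 of 16 alternatives for Tfap4, 7 of 16 for Mxd3, 6 of 16 for Mxi1, 4 of 17 for Max and 4 of 17 for Mxd4, and the sign turned in 1 more each for Mxd3, Max and Mxd4. The G1 share of treated cells also differed between these times, at 17.4 to 24.2% at 48 h and 38.1 to 56.8% at 72 h, and its part in these differences was not tested beyond the fits within phases.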

How the results depend on the processing

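Across the alternatives tried, Mxd4 at 48 h stayed lower in each of 17 and lost its call in G1 cells alone. Alternatives on S, G2/M, LZ or (in the time course) DZ cells alone, and without the 0 h mouse of the highest G1 share, were chosen after seeing the data. For each change below the cause was not tested, beyond fewer cells in the subsets. The count of network genes called at 48 h (4) became 2 in G1, 1 in S, 1 in G2/M and 1 in the smaller experiment alone. At 72 h (0) it became 1 in G1 cells (Mxd4), 1 in cells with the B1-8hi receptor (Mxi1) and 1 without that 0 h mouse (Mxi1). From 48 h to 72 h in treated mice (6) it became 3 with thinned cells, 3 with no experiment term, 1 in G1, 2 in S, 0 in G2/M, 3 in LZ cells and 2 in the smaller experiment. For treated 48 h against 0 h (4) it was 2 with no experiment term, 0 in G1, 1 in S, 1 in G2/M, 2 in LZ cells and 2 in B1-8hi cells, and for untreated 72 h against 0 h (0) it was 1 with thinned cells. For the change of the effect (5) it was 2 with thinned cells, 1 with no experiment term, 1 in G1, 0 in S, 0 in G2/M, 2 in DZ cells, 3 in LZ cells, 3 in B1-8hi cells and 0 in the smaller experiment. In the sort (7) it was 4 in each of G1, S, G2/M and LZ cells, and 6 to 7 when 1 mouse was left out.

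Without the replicate block that pairs the sorted populations by mouse, 6 genes were called, Mxd1 being lost. The Myc-UMI share passed unthinned at 48 h (7.997 points) and from 48 h to 72 h (-8.493), and in the sort with the highest hashtag (1.258) and in G1 cells (3.918); leaving out 1 mouse gave 0.678 to 1.38.

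Called log2 changes that turned sign, without passing unless stated in the report, were as follows. In G2/M cells they were Max at 48 h (0.0131) and in the change of effect (-0.0498), Mxd3 at 48 h (-0.031), in the change of effect (0.0529), at treated 48 h against 0 h (-0.1218) and from 48 h to 72 h (0.1655), and Mxi1 from 48 h to 72 h (0.2143). In S cells they were Mxd3 at treated 48 h against 0 h (-0.0058) and from 48 h to 72 h (0.0812), and Mlx in the sort (-0.0247). In G1 cells they were Mxd4 from 48 h to 72 h (-0.3007) and in the change of effect (-0.1694). In LZ cells they were Mga from 48 h to 72 h (-0.0037), and Mlx (-0.0596) and Tfap4 (-0.0079) in the sort. Calls over all genes at 48 h (4843) fell to 787 in G1, 1037 in S, 1668 in G2/M, 2835 in LZ cells, 2149 in the smaller experiment, 3149 thinned and 2680 with no experiment term, and in the sort (7596) to 4441 in G2/M. Where they moved by over 1.5 times, the others fell to 22 to 427 at 72 h (874), 491 to 3104 from 48 h to 72 h in treated mice (5019), 543 to 3338 for treated 48 h against 0 h (5294), 265 to 1931 for the change of the effect (3217) and 3 to 256 for untreated 72 h against 0 h (451), and ran from 0 to 52 for untreated 48 h against 0 h (13). Low-count genes (Mxd1, Mxi1, Tfap4) had too few UMIs in several subsets to be tested.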
